A study of Mus musculus with 2 samples.

Results

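The genes described here are Ghrl, which encodes the ghrelin prohormone, Mboat4, which encodes the enzyme that attaches a fatty acid to ghrelin, and Ghsr, which encodes the ghrelin receptor, 3 of the 31053 genes in the count matrices. They were followed in single cells dispersed from islets of 2-week-old female mice, with 1 droplet library of wild-type (WT) islets and 1 library of Npc1KO islets, each prepared from a pool of 3 mice of the same genotype. The Npc1KO (Npc1-/-) mice lack functional Npc1 from both alleles on a C57BL/6J background and were compared with WT littermates, and Npc1 is the lysosomal membrane protein that exports cholesterol. Because each genotype is represented by 1 pooled library, genotype and library cannot be told apart, and no test between genotypes was possible. Cells rich in Ghrl were selected on the measured Ghrl share itself, with 0.5% of a cell's unique molecular identifiers (UMIs, each standing for 1 captured transcript) as the limit, which was met by 7 of 4628 kept WT cells and by 2 of 4269 kept Npc1KO cells. The Ghrl values of those cells are therefore a description of how they were chosen and not a result.

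Ghrelin is a peptide hormone made mainly by endocrine cells of the stomach, and in the fetal and neonatal pancreas by a scarce islet cell type called the ε cell. The prohormone is cut by prohormone convertases, and a serine near its start is joined to octanoic acid by the Mboat4 enzyme, also called ghrelin O-acyltransferase, which is needed for binding to the receptor. In the islet the receptor is best known from δ cells, the somatostatin-producing cells, where ghrelin promotes somatostatin release, and somatostatin in turn restrains insulin and glucagon release.

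In the GRCm38 annotation, Ghrl (ENSMUSG00000064177) lies on the minus strand at chr6:113716119-113719880, Mboat4 (ENSMUSG00000071113) on the plus strand at chr8:34115030-34125182, and Ghsr (ENSMUSG00000051136) on the plus strand at chr3:27371351-27378010. The stretch of the Ghrl coding sequence that encodes the acylated peptide is shown because Mboat4 acts on it, and its 84 bases are part of 351 coding bases. The first 39 bases come from exon 2 (chr6:113719322-113719360) and the other 45 from exon 3 (chr6:113719182-113719226), and the stretch is identical in 3 of the 6 coding transcripts. The capitals mark the third codon, which encodes the serine that receives the fatty acid.
Ghrl, acylated peptide: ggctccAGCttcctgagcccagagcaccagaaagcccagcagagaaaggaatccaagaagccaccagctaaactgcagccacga
The counts were made from the 3' end of transcripts, so isoforms with and without this stretch were not separated.

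The WT matrix held 8569 barcodes and 114324626 UMIs and the Npc1KO matrix 7646 barcodes and 127122035 UMIs, and the kept cells had a median of 18905 and 21381 UMIs. Npc1 was counted at 8.40 (95% exact Poisson interval 7.82 to 9.0) counts per 1000000 UMIs (CPM) in kept WT cells and at 4.14 (3.74 to 4.57) in kept Npc1KO cells, so transcripts of the targeted gene were fewer but still counted in the library labelled Npc1KO. All intervals given here cover counting error only. A cell was assigned to its leading hormone when the largest of Ins1 plus Ins2, Gcg, Sst, or Ppy plus Pyy (PP) made up at least 10% of its UMIs, and cells without a leading hormone were sorted by endothelial, stellate, immune and Schwann markers. The marker genes mostly followed these labels. Irx2, a transcription factor of α cells, was at 145 CPM in WT and 140 CPM in Npc1KO Gcg-leading cells and under 7 CPM in the Ins- and Sst-leading cells of both libraries, and Mafa, a β cell factor, was at 198 and 185 CPM in Ins-leading cells. The PP-leading cells were mixed, since 35.0% (WT) and 36.7% (Npc1KO) of them also had Sst at 1% of UMIs or more. In those cells the δ cell factor Hhex stood at 334 (WT) and 297 (Npc1KO) CPM, whereas PP-leading cells with Sst under 1% had Hhex at 5.02 and 9.65 CPM. The latter group is used below wherever a narrower PP class is named. Sertm1, 1 of the listed PP cell markers, was under 1 CPM in the narrower class of both libraries.

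Among cells with a leading hormone, Ghrl was highest in the Gcg- and PP-leading cells of both libraries. Cells with neither a leading hormone nor the lineage markers had 57.5 (41.8 to 77.2) CPM in WT (n = 71), and in Npc1KO (n = 136) they had 5051 (4954 to 5150) CPM and 64.1% of all Ghrl UMIs, of which 10185 of 10229 came from 1 barcode described below. In Gcg-leading cells its summed level was 265 (258 to 273) CPM in WT (n = 1048 cells) and 204 (197 to 211) CPM in Npc1KO (n = 857 cells). In all PP-leading cells it was 474 (459 to 489) CPM in WT (n = 411) and 207 (198 to 216) CPM in Npc1KO (n = 442). Almost all of the PP signal lay in cells with little Sst: the narrower PP class had 664 (643 to 686) CPM in WT (n = 267) and 284 (271 to 298) CPM in Npc1KO (n = 280), against 11.8 (7.83 to 17.0) and 45.2 (38.0 to 53.5) CPM in the Sst-containing PP-leading cells. Ins-leading cells held 4.75 (4.19 to 5.36) CPM in WT and 4.51 (3.96 to 5.11) CPM in Npc1KO, and Sst-leading cells 10.3 (6.85 to 14.9) and 2.47 (0.905 to 5.37) CPM. Endothelial cells, which are not known as a source of ghrelin, carried 1.83 (0.792 to 3.61) CPM in WT and 4.03 (2.53 to 6.10) CPM in Npc1KO, and stellate and mesenchymal cells 2.71 (1.09 to 5.58) and 3.37 (1.54 to 6.40) CPM. In order of summed level, the narrower PP class was above the Gcg class in both libraries with counting intervals that did not overlap. These intervals leave out the spread between cells. By the thinned share of cells with a Ghrl UMI, given below, the intervals of the 2 classes overlapped in Npc1KO and not in WT. The Ins-leading level lay within the endothelial interval in Npc1KO and above it in WT, and the WT value was 1.16 CPM when the barcodes with the highest doublet scores were removed.

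**Figure D1:**
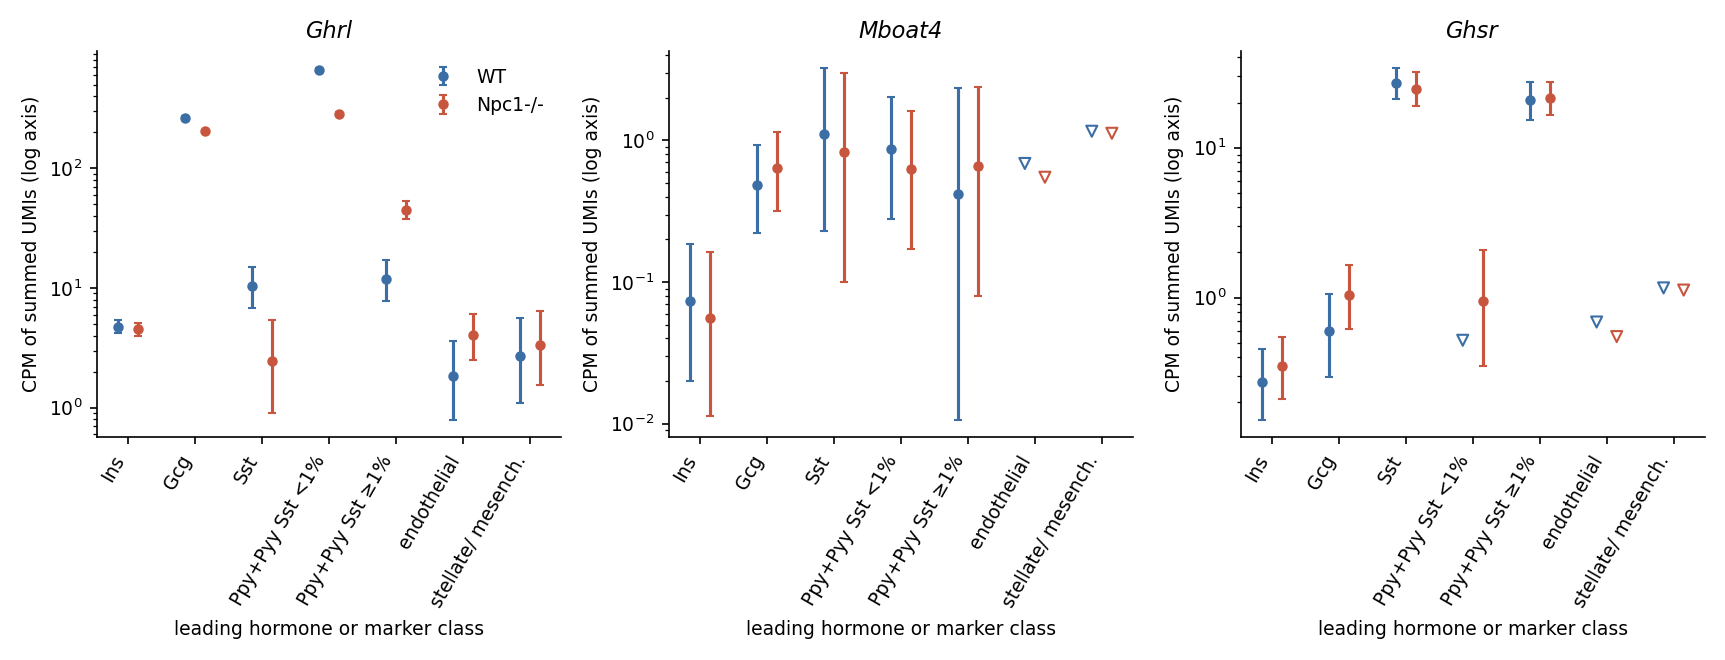
Summed CPM of Ghrl, Mboat4 and Ghsr (log axes) in each cell class of the WT and Npc1KO libraries, with 95% exact Poisson intervals as bars and open triangles at the level of 3 counts where no UMI was found. Cells with neither a leading hormone nor lineage markers, among them the barcode of 43.9% Ghrl, are not plotted. Among the classes plotted, Ghrl stands highest in the Gcg-leading and narrower PP classes of both libraries. Mboat4 intervals overlap among the Gcg-leading, Sst-leading and PP classes, and the Ins-leading interval lies below those of the Gcg-leading and narrower PP classes. Ghsr stands highest in the Sst-leading class and in PP-leading cells with Sst.

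Within these classes Ghrl was uneven from cell to cell. After every cell was thinned to 5000 UMIs, a Ghrl UMI was found in 29.5% (26.7 to 32.4) of WT and 29.3% (26.2 to 32.5) of Npc1KO Gcg-leading cells and in 40.7% (34.7 to 46.9) and 33.0% (27.4 to 38.9) of the narrower PP class. The thinning left out 35 WT and 16 Npc1KO Gcg-leading cells and 4 and 7 cells of the narrower PP class. Without thinning the shares were 39.4% and 40.7% of Gcg-leading cells and 51.7% and 45.7% of the narrower PP class. In endothelial cells the thinned share was 0.779% (0.161 to 2.26) in WT and 1.96% (0.850 to 3.83) in Npc1KO, and the unthinned share 1.85% and 4.77%, with median depths of 7778 and 10285 UMIs against 17144 and 19110 UMIs in Gcg-leading cells. The intervals of the Gcg and PP shares lay above those of the endothelial shares in both libraries.

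Among Gcg-leading cells with a Ghrl UMI, the lowest value was 25.5 CPM, the median 381 and the highest 11734 in WT, and the lowest was 20.1, the median 273 and the highest 4609 in Npc1KO. In the narrower PP class the corresponding values were 27.6, 558 and 21527 CPM in WT and 25.4, 351 and 5505 CPM in Npc1KO. The lowest values were close and the highest were in WT in both classes. The 10 cells richest in Ghrl held 43.1% (WT) and 39.1% (Npc1KO) of the Ghrl UMIs of the narrower PP class, and 17.0% and 19.9% of those of Gcg-leading cells, so that the summed PP level rests on few cells. Cells with Ghrl at 0.05% of UMIs or more, called Ghrl-bearing below, made up 15.6% (13.4 to 17.9) of WT and 12.8% (10.7 to 15.3) of Npc1KO Gcg-leading cells, and 27.3% (22.1 to 33.1) and 17.1% (12.9 to 22.1) of the narrower PP class. Only 2 WT and 1 Npc1KO Ins-leading cells reached that limit, and none of the 432 WT and 440 Npc1KO endothelial cells did, which allows a share of up to 0.694% and 0.682%.

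**Figure D2:**
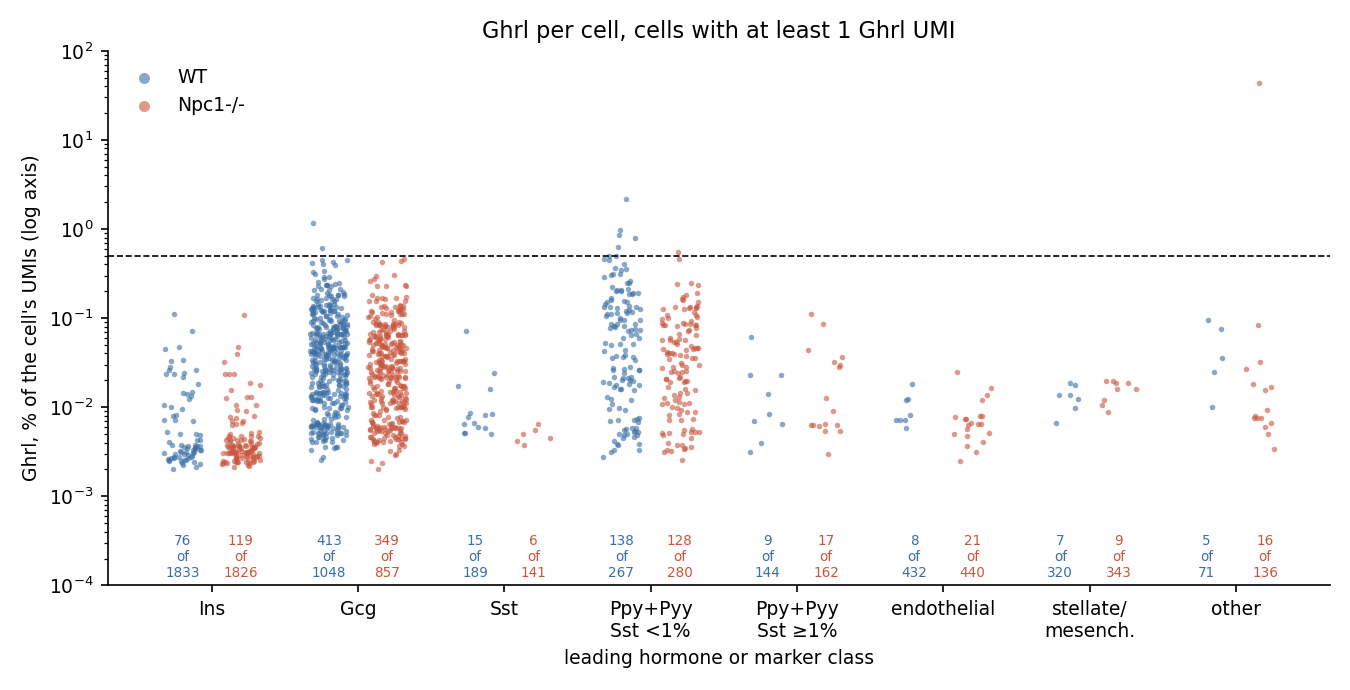
Ghrl as a percentage of UMIs (log axis) in each kept cell with a Ghrl UMI of the classes shown, by library. The number of cells with a UMI and the class size stand below each column. Macrophage, lymphocyte and Schwann cells are not plotted. The dashed line marks 0.5%, which the Gcg and PP columns cross in WT, and 1 Npc1KO barcode without a leading hormone lies far above every other cell at 43.9%.

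The cells at or above 0.5% of UMIs were 0.151% (0.0608 to 0.311, Clopper-Pearson) of kept cells in WT and 0.0469% (0.00567 to 0.169) in Npc1KO. The ratio of the shares, Npc1KO over WT, was 0.310 with an interval of 0.0314 to 1.63, so a difference was not detectable with 9 such cells. Of the 7 WT cells, 5 were led by Ppy plus Pyy, with Ghrl at 2.15%, 0.961%, 0.863%, 0.795% and 0.622% of their UMIs, and 2 were led by Gcg, with Ghrl at 1.17% and 0.613%. Of the 2 Npc1KO cells, 1 was led by Ppy plus Pyy with Ghrl at 0.551%, and the other had no leading hormone and Ghrl at 43.9%. The WT cells just inside and just outside the limit had 0.613% and 0.4995%, and the Npc1KO cells 0.551% and 0.461%. The limit therefore cuts through a continuous range in both libraries, with the 43.9% barcode alone standing apart. In these 9 cells the highest Sst share was 0.0290%, and none had a Mboat4 or Ghsr UMI. The cells held 117060 (WT) and 57716 (Npc1KO) UMIs, too few to show Mboat4 at the levels of the hormone classes given below. Together they held 14.3% of all Ghrl UMIs in kept WT cells and 65.0% in kept Npc1KO cells.

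Genes that differed in the cells with at least 0.5% Ghrl were described by a fixed rule without a test. A gene was called when its CPM was at least 2-fold higher or lower than in the comparison cells of the same library, in the same direction in both libraries, with a 95% counting interval that excluded no difference in each, and at least 20 CPM in one of the sums of each library. Ghrl itself was not counted. Against all other hormone-leading cells, 36 of 4522 genes were called higher (0.796%) and 31 lower (0.686%). The comparison cells were mostly Ins-leading, with Ins1 plus Ins2 at 34.2% (WT) and 32.5% (Npc1KO) of their UMIs against 0.878% and 0.483% in the Ghrl-rich cells. Of the 10 genes lowest by the smaller of the libraries' ratios, 5 are on the β cell list, Ins1, Ins2, Iapp, Ucn3, a marker of mature β cells, and G6pc2, the islet glucose-6-phosphatase catalytic subunit, and the others were Sst, Papss2, Bace2, Nnat and Frzb. With the highest doublet scores removed, which took out the 43.9% barcode, 18 of the 36 higher and 20 of the 31 lower genes remained among the 32 and 21 called. With the limit at 1% Ghrl 16 and 9 remained, with the limit at 0.2% 17 and 26, and with a stricter cell filter 14 and 16.

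The gene with the largest ratio on the higher side was Irs4, which encodes an insulin receptor substrate adaptor. It had 3 UMIs in 3 of the 7 WT cells (25.6 CPM against 0.107 CPM in the other hormone-leading cells, a log2 ratio of 8.05 with an interval of 5.38 to 9.91) and 10 UMIs in both Npc1KO cells (173 against 0.205 CPM, 9.75, 8.44 to 10.9). The others named by rank were Zcchc12, Pcp4, which binds calmodulin, Ceacam10, Igsf9, Limch1, Rab3c, a small GTPase of secretory vesicles, Acsl1, a long-chain acyl-CoA synthetase, Ppy, and Cpb2, a carboxypeptidase. Acsl1 had 6 UMIs in 3 WT cells (51.3 against 7.25 CPM) and 12 UMIs in both Npc1KO cells (208 against 8.16 CPM). The calls rest on few molecules, since Igsf9 was counted with 3 and 2 UMIs and Zcchc12 with 3 and 6. In the Npc1KO library 11 of the 12 Acsl1 UMIs, 8 of the 10 Irs4 UMIs and all 6 Zcchc12 UMIs came from the 43.9% barcode.

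With the leading hormone held fixed, 5 WT cells and 1 Npc1KO cell were set against the other PP-leading cells, and 5 of 5127 genes were called higher (0.0975%) and 19 lower (0.371%). The 5 higher genes were Irs4, Cramp1l, Agt, which encodes angiotensinogen, Rab3c, and Uchl1, a ubiquitin hydrolase of neurons and endocrine cells. Uchl1 had the most molecules, with 24 UMIs in all 5 WT cells (282 against 127 CPM, log2 ratio 1.18, 0.50 to 1.73) and 9 in the Npc1KO cell (261 against 103 CPM, 1.42, 0.21 to 2.27). With the limit at 0.2% Ghrl, 0 of these 5 genes remained among the 11 called higher, and 10 of the 19 lower genes remained among 29. The 10 lowest were Sst, Iapp, Fam159b, Cela1, Cd24a, Ly6h, Ramp1, Arg1, Cd200 and Rbp4, of which Sst, Fam159b, Ly6h, Arg1 and Rbp4 are on the list of δ cell markers. Arg1 is also on the list of ε cell markers, and was at 35.3 against 277 CPM in WT and 0 against 314.5 CPM in Npc1KO. The comparison cells had Sst at 31559 CPM (WT) and 35463 CPM (Npc1KO), against 70.6 and 290 CPM in the Ghrl-rich cells.

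The Ghrl-bearing cells allowed a comparison with more cells. Cells with Ghrl at 0.05% of UMIs or more were set against cells of the same leading hormone with Ghrl under 0.01%, all with Sst under 1%. Among Gcg-leading cells (159 against 702 in WT and 108 against 574 in Npc1KO), 3 of 5088 genes were called higher (0.0590%) and 2 lower (0.0393%). Lrrtm3, a leucine-rich membrane protein of synapses, was at 30.3 against 9.68 CPM in WT (log2 ratio 1.65, 1.23 to 2.06) and at 23.4 against 7.53 CPM in Npc1KO (1.64, 1.11 to 2.15). Agt was at 90.2 against 35.9 CPM in WT (1.33, 1.10 to 1.56) and at 86.7 against 32.5 CPM in Npc1KO (1.42, 1.15 to 1.67). Anpep, which encodes aminopeptidase N, was at 28.9 against 12.3 CPM in WT (1.24, 0.83 to 1.64) and at 27.0 against 10.4 CPM in Npc1KO (1.38, 0.90 to 1.83). On the lower side, Fbp1, a gluconeogenic enzyme, was at 21.1 against 81.4 CPM in WT (-1.93, -2.35 to -1.57) and at 29.7 against 79.6 CPM in Npc1KO (-1.41, -1.81 to -1.06). Syt4, a synaptotagmin of secretory vesicles, was at 13 against 30.1 CPM in WT (-1.19) and at 7.64 against 24.7 CPM in Npc1KO (-1.65). Of the 9 tested α cell markers 0 were called, and their median log2 ratio was -0.014 (WT) and 0.027 (Npc1KO). In both libraries 2 were above 0 and 3 below 0, beside 14.7% and 42.5% of all genes tested. Those other than hormone genes summed to 22794 against 28006 CPM in WT and to 20006 against 24556 CPM in Npc1KO. Irx2 was at 136 against 150 CPM in WT and 153 against 142 CPM in Npc1KO.

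Among cells of the narrower PP class (73 against 159 in WT and 48 against 181 in Npc1KO), 9 of 4550 genes were called higher (0.198%) and 7 lower (0.154%). Rmst, a long noncoding RNA, was at 28.1 against 7.86 CPM in WT and at 23.4 against 2.49 CPM in Npc1KO, and Anpep at 22.3 against 9.89 and 25.3 against 8.98 CPM. Pnoc, the precursor of nociceptin, had the largest ratios, but its 51 WT and 37 Npc1KO UMIs came from 3 and 4 cells. Cdca3, Pbk, Hist1h1b, Birc5 and Stmn1 are all expressed in dividing cells. Of the 4 tested genes on the list of proliferation markers 0 were called. In both libraries 3 were above 0, beside 24.6% of all genes tested. That list summed to 276 against 110 CPM in WT and to 139 against 109 CPM in Npc1KO. In Ghrl-bearing Gcg-leading cells 0 of the 4 tested were called, and 3 were below 0 in both libraries, beside 42.5% of all genes tested. Birc5 was found in 8 WT and 3 Npc1KO cells and Pbk in 10 and 3, whereas Stmn1 was found in 27 and 14. When the barcodes with the highest doublet scores were removed, 5 of the 9 higher and 4 of the 7 lower calls remained. The 7 genes called lower were Nnat, Sparc, Vdr, Gpr45, Iapp, Ppp1r1a and Syt4. Iapp, the amyloid peptide secreted with insulin, was at 1988 against 9822 CPM in WT (-2.30) and at 8492 against 19407 CPM in Npc1KO (-1.19), and the vitamin D receptor Vdr at 10.2 against 25.3 and 6.56 against 32.7 CPM.

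Anpep was called higher and Syt4 lower in both the Gcg and the PP comparison. Of 4351 genes tested in both, 10 (0.230%) were higher and 22 (0.506%) lower with counting intervals that excluded no difference in all 4 sets, whatever the size of the ratio. The 10 higher genes were Agt, Anpep, Bik, Cst3, Gcg, Gm11837, Pappa2, Ppy, Uchl1 and Xist. The 22 lower genes included Chgb, which encodes the granule protein chromogranin B, Resp18, Ramp1, Gpx3, Folr1 and 7 mitochondrial transcripts. Chgb was at 467 against 681 CPM in WT and 455 against 895 CPM in Npc1KO Gcg-leading cells, and at 966 against 1580 and 948 against 2005 CPM in the narrower PP class. The Ghrl-bearing Gcg-leading cells had a lower median mitochondrial share (3.97% against 4.16% in WT, 3.78% against 4.15% in Npc1KO) and a slightly higher median depth (17640 against 16506 and 20250 against 18368 UMIs), and their part in these differences was not tested.

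**Figure D3:**
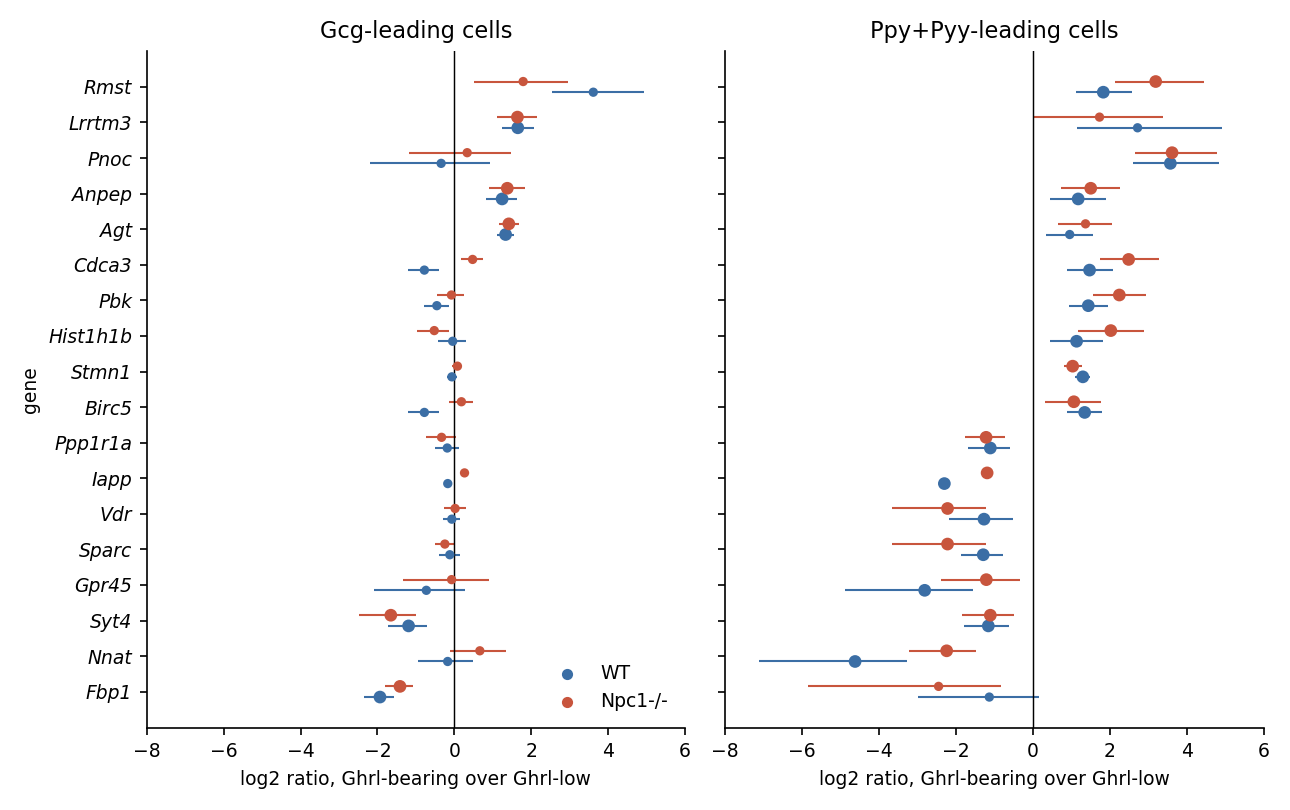
Log2 ratio of CPM between Ghrl-bearing cells (Ghrl at 0.05% of UMIs or more) and cells with Ghrl under 0.01%, for Gcg-leading cells and the narrower PP class in each library, with 95% counting intervals, for the called genes named in the text, with large points where a gene was called in that class and small points where it was not. Anpep lies above 0 and Syt4 below 0 in all 4 sets.

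Of the 5 genes called in Gcg-leading cells, Anpep and Fbp1 were ordered along the Ghrl share in both libraries. The 5 genes were called between cells with Ghrl under 0.01% and cells at 0.05% or more, so a difference between those was fixed by the choice. Only the cells between these limits and the order above 0.05% were outside the call. In Gcg-leading cells with Ghrl under 0.01%, from 0.01 to 0.05%, from 0.05 to 0.2% and above 0.2%, Anpep was at 12.3, 20.3, 28.2 and 32.6 CPM in WT and at 10.4, 24.5, 26.2 and 33.3 CPM in Npc1KO. Over the same steps Fbp1 was at 81.4, 50.2, 21.4 and 19.6 CPM in WT and at 79.6, 44.7, 31.2 and 16.6 CPM in Npc1KO. The other 3 were not ordered in WT, where Agt was at 35.9, 95.6, 92.1 and 80.4 CPM, Lrrtm3 at 9.68, 24.4, 31.6 and 23.9 CPM, and Syt4 at 30.1, 10.2, 14.7 and 4.34 CPM. In Npc1KO Agt was at 32.5, 34.1, 79.1 and 150 CPM and Lrrtm3 at 7.53, 17.9, 22.2 and 33.3 CPM, both ordered, and Syt4 at 24.7, 26.2, 8.57 and 0 CPM. The top step held 26 WT and 11 Npc1KO cells, with Anpep intervals of 18.2 to 53.7 and 14.4 to 65.5 CPM. In the narrower PP class Rmst was at 7.86, 11.7, 21.2 and 41.6 CPM in WT and at 2.49, 4.01, 20.1 and 49.8 CPM in Npc1KO, in the same order in both. The top step there held 25 WT and 5 Npc1KO cells. Pappa2, a protease of insulin-like growth factor binding proteins, was at 129, 178, 195 and 242 CPM in WT and at 82.8, 147, 151 and 133 CPM in Npc1KO. Rmst and Pappa2 were likewise chosen by comparisons between the first step and the steps above 0.05%.

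Irs4, on the ε cell marker list, was also counted cell by cell beside Ghrl. It had 13 UMIs in 13 kept WT cells, each of which also had a Ghrl UMI (100%, 75.3 to 100), and 12 of these UMIs were in cells with Ghrl at 0.05% or more. In Npc1KO it had 28 UMIs in 19 cells, of which 16 had a Ghrl UMI (84.2%, 60.4 to 96.6). In all kept cells a Ghrl UMI was present in 14.6% of WT and 15.7% of Npc1KO cells. That share was 39.4% and 40.7% in Gcg-leading cells and 51.7% and 45.7% in the narrower PP class. The cells with at least 0.5% Ghrl, in which Irs4 ranked first, held 3 of the 13 WT and 10 of the 28 Npc1KO Irs4 UMIs. No Irs4 UMI was found in the 702 WT and 574 Npc1KO Gcg-leading cells with Sst under 1% and Ghrl under 0.01%, which allows up to 0.250 and 0.272 CPM. In the narrower PP class with Ghrl under 0.01%, Irs4 had 0 UMIs in 159 WT cells and 1 UMI in 181 Npc1KO cells.

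The barcode with the most Ghrl, in the Npc1KO library, had 23199 UMIs from 4066 genes with 5.74% mitochondrial UMIs, and 10185 of the UMIs were Ghrl. Its Scrublet doublet score was 0.441 against a median of 0.0455 in the library, and it was among the barcodes taken out when the highest scores were removed. The next most abundant transcript was Ttr with 517 UMIs, which encodes transthyretin and is abundant in α cells. Calculated per 1000000 UMIs outside the hormone genes, Ttr stood at 40473 (37059 to 44117), near the 32603 of Npc1KO Gcg-leading cells. Insulin, glucagon, Ppy, Pyy and Sst transcripts were each at low numbers, with 152 UMIs of Ins1 plus Ins2, 26 of Gcg, 17 of Ppy plus Pyy and 6 of Sst. Relative to Npc1KO hormone-leading cells, the highest lower bounds of the ratio among the 397 genes ranked were those of Irs4 (8 UMIs, ratio 1397, 529 to 3342), Serpina1a (16 UMIs, ratio 312, 174 to 522), Pianp and Diras2. Serpina1a and Gc (25 UMIs) are genes of secreted plasma proteins, and Rbp4 (123 UMIs) encodes retinol binding protein. Of the ε cell markers other than Ghrl, which chose the barcode, Acsl1 had 11 UMIs, Irs4 8, Nucb2 6, Anpep 3, Etv1 and Arg1 2 each, and Mboat4 0. A count of 0 in this barcode allows up to 235 per 1000000 UMIs outside the hormone genes. On the scale outside hormone genes Etv1 and Arg1 were at 157 each, with intervals of 19.0 to 566 that cover the 479 and 230 of Npc1KO Gcg-leading cells. Acsl1 was at 861 (430 to 1541) and Irs4 at 626 (270 to 1234), against 16.5 and 0.446 in those cells. Nucb2 was at 470 (172 to 1022) and Anpep at 235 (48.4 to 686), against 60.1 and 23.8. The intervals of Nucb2 and Anpep cover the 185 and 52.0 of Npc1KO Ins-leading cells. None of the endothelial, stellate, macrophage, lymphocyte or Schwann markers was detected. Over 4353 genes its profile correlated with the summed PP, Gcg, Sst and Ins profiles at r of 0.681, 0.670, 0.659 and 0.630, below the 0.732 to 0.756 of the median cell of each class with its own class. The genes share depth and composition, and the values are given as a description.

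**Figure D4:**
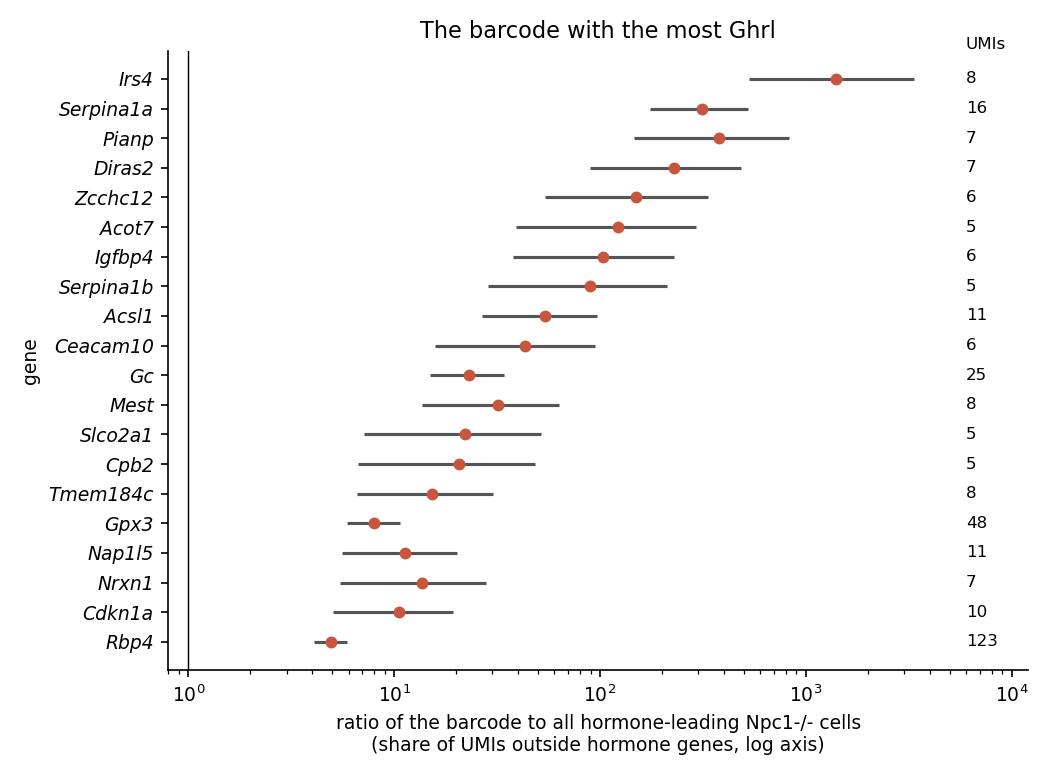
Ratio (log axis) of each gene's share of UMIs outside the hormone genes in the Npc1KO barcode with the most Ghrl to that in all hormone-leading Npc1KO cells, with 95% counting intervals, for the 20 genes with the highest lower bounds, and the UMIs counted in the barcode at the right. Irs4 stands highest at 1397, from 8 UMIs, and Rbp4, with 123 UMIs, has the narrowest interval.

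This barcode alone decided the direction of the pooled comparison between the libraries. Over all kept cells Ghrl was at 96.9 (95 to 98.9) CPM in WT and at 169 (166 to 172) CPM in Npc1KO, a ratio of 1.74 (1.70 to 1.79), and without the barcode the Npc1KO level was 61.1 CPM and the ratio 0.631 (0.610 to 0.652). Within the Gcg and PP classes the Npc1KO library had less Ghrl. In Gcg-leading cells with Sst under 1% the ratio was 0.788 (0.754 to 0.824), and 0.836 (0.80 to 0.875) without the cells at 0.5% or more. In the narrower PP class it was 0.428 (0.405 to 0.453), and 0.518 (0.487 to 0.551) without them. The median gene of these classes had a log2 ratio of 0.03 and 0.09. In Ins-leading cells the ratio was 0.95 (0.794 to 1.14), and in the Sst-containing PP-leading cells the Npc1KO level was higher, with a ratio of 3.84 (2.54 to 5.98) resting on 28 WT and 137 Npc1KO UMIs. In the share of Gcg-leading cells with a Ghrl UMI the libraries differed little after thinning, by 29.5% against 29.3%, while the median in cells with a UMI was 381 against 273 CPM.

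The libraries also differed along the PP hormone content of Gcg-leading cells with Sst under 1%. In cells with Ppy plus Pyy under 0.5%, from 0.5 to 2%, from 2 to 10% and above 10% of UMIs, Ghrl was at 137, 175, 266 and 280 CPM in Npc1KO, from 164, 305, 319 and 42 cells. In WT it was at 271, 253, 273 and 307 CPM, from 289, 382, 316 and 36 cells. The libraries thus lay apart in cells with the least Ppy and Pyy, with intervals of 124 to 151 and 256 to 286 CPM, and overlapped above 2%, with 253 to 279 and 259 to 287 CPM. A Ghrl UMI was nevertheless found in 37.2% of Npc1KO and 33.9% of WT cells of the lowest step. Without replicate libraries, the spread between mice of 1 genotype is unknown.

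Mboat4 was near the limit of detection. It was counted with 22 UMIs in 22 cells of each library, never more than 1 per cell, and all of these cells had a leading hormone. In Gcg-leading cells it was at 0.487 (0.223 to 0.924) CPM in WT and 0.641 (0.320 to 1.15) CPM in Npc1KO, in PP-leading cells at 0.736 (0.270 to 1.60) and 0.641 (0.235 to 1.40) CPM, in Sst-leading cells at 1.10 (0.228 to 3.23) and 0.822 (0.0996 to 2.97) CPM, and in Ins-leading cells at 0.0730 (0.0199 to 0.187) and 0.0554 (0.0114 to 0.162) CPM. The Gcg, PP and Sst intervals overlapped in each library, so no order among them was shown, and the Ins interval lay below those of Gcg and PP. No Mboat4 UMI was found in endothelial cells, where 3 counts would be 0.688 CPM in WT and 0.550 CPM in Npc1KO. Of the cells with a Mboat4 UMI, 4 of 22 in WT and 8 of 22 in Npc1KO also had a Ghrl UMI. Over all hormone-leading cells the share with a Ghrl UMI was 18.70% and 18.95%. Among Gcg- and PP-leading cells with a Mboat4 UMI, 4 of 15 and 8 of 17 had a Ghrl UMI. Those shares were 39.4% and 40.7% over all Gcg-leading and 35.8% and 32.8% over all PP-leading cells. The counts are too small to show a link between Mboat4 and Ghrl. Among Gcg-leading cells with Sst under 1%, Mboat4 had 0 UMIs in Ghrl-bearing WT cells, where 8 UMIs came from cells with Ghrl under 0.01%. It had 3 UMIs in Ghrl-bearing Npc1KO cells, where 4 came from cells with Ghrl under 0.01%. A higher Mboat4 level in Ghrl-bearing cells was not detectable at this depth. The ratio of the libraries over all kept cells was 0.997 (0.526 to 1.89).

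Ghsr followed Sst. In Sst-leading cells it was at 26.9 (21.1 to 33.8) CPM in WT (73 UMIs, n = 189 cells) and at 24.7 (18.8 to 31.8) CPM in Npc1KO (60 UMIs, n = 141 cells). A Ghsr UMI was found in 30.7% and 34.8% of these cells, and in 10.5% (6.44 to 15.9) and 10.1% (5.62 to 16.3) after thinning to 5000 UMIs. PP-leading cells were next at 6.01 (4.45 to 7.95) and 7.59 (5.93 to 9.57) CPM, but these UMIs came from the cells that also contained Sst, at 20.6 (15.3 to 27.3) and 21.5 (16.6 to 27.4) CPM. The narrower PP class had 0 UMIs in WT and 6 in Npc1KO (0.949 CPM, 0.348 to 2.06). Ins-leading cells had 15 and 19 Ghsr UMIs, and all of them were in the 52 WT and 58 Npc1KO Ins-leading cells with Sst at 1% or more. In all, cells with Sst at 1% of UMIs or more were 9.38% (434 cells) of kept WT and 9.75% (416 cells) of kept Npc1KO cells and held 155 of 156 (99.4%, 96.5 to 99.98) and 168 of 178 (94.4%, 89.9 to 97.3) Ghsr UMIs. Endothelial and stellate cells had none. With the highest doublet scores removed the shares were 99.2% and 94.5%. The 10 Npc1KO UMIs outside these cells were 6 in the narrower PP class and 4 in Gcg-leading cells. Npc1KO cells with macrophage markers had 5 Ghsr UMIs, and 6 of these 48 cells had Sst at 1% or more.

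Along the Sst share the Ghsr CPM was graded in both libraries, whereas the share of cells with a Ghsr UMI was not. From 1 to 5%, from 5 to 10% and above 10% Sst, Ghsr was at 9.76 (5.87 to 15.2), 16.4 (11.2 to 23.2) and 24.4 (19.9 to 29.6) CPM in WT and at 12.1 (8.08 to 17.3), 17.1 (12.1 to 23.5) and 23.6 (19.2 to 28.7) CPM in Npc1KO. The lowest and highest of these steps did not overlap, and neighbouring steps did. A Ghsr UMI was found in 28.6%, 29.2% and 28.7% of the WT cells and in 28.4%, 34.0% and 33.2% of the Npc1KO cells of these steps. Depth was not held equal between the steps, and its part in the CPM grade was not tested. Ghrl ran the other way, at 61.6, 49.8 and 9.86 CPM in WT and at 56.6, 43.2 and 5.38 CPM in Npc1KO. The steps mix cells of different leading hormones. Of the 259 WT Ghrl UMIs in cells with Sst at 1% or more, 174 came from 25 Gcg-leading cells. Of the 255 in Npc1KO, 87 came from 27 Gcg-leading and 137 from 162 PP-leading cells. The part of this mix in the decline was not tested. Of 126 WT and 143 Npc1KO cells with a Ghsr UMI, 12 and 19 also had a Ghrl UMI, beside 14.6% and 15.7% of all kept cells, and 1 and 2 had Ghrl at 0.05% or more, beside 5.23% and 3.82% of all kept cells. Of the cells with a Ghsr UMI, 125 and 135 had Sst at 1% or more. Among all cells with that much Sst, 9.68% and 10.6% had a Ghrl UMI, and 1.61% and 0.96% had Ghrl at 0.05% or more. The counts are near these shares, so no separation of Ghsr from Ghrl beyond that class was shown. Over cells with Sst at 1% or more, Ghsr was at 19.0 (16.1 to 22.3) CPM in WT and 18.9 (16.1 to 22) CPM in Npc1KO.

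**Figure D5:**
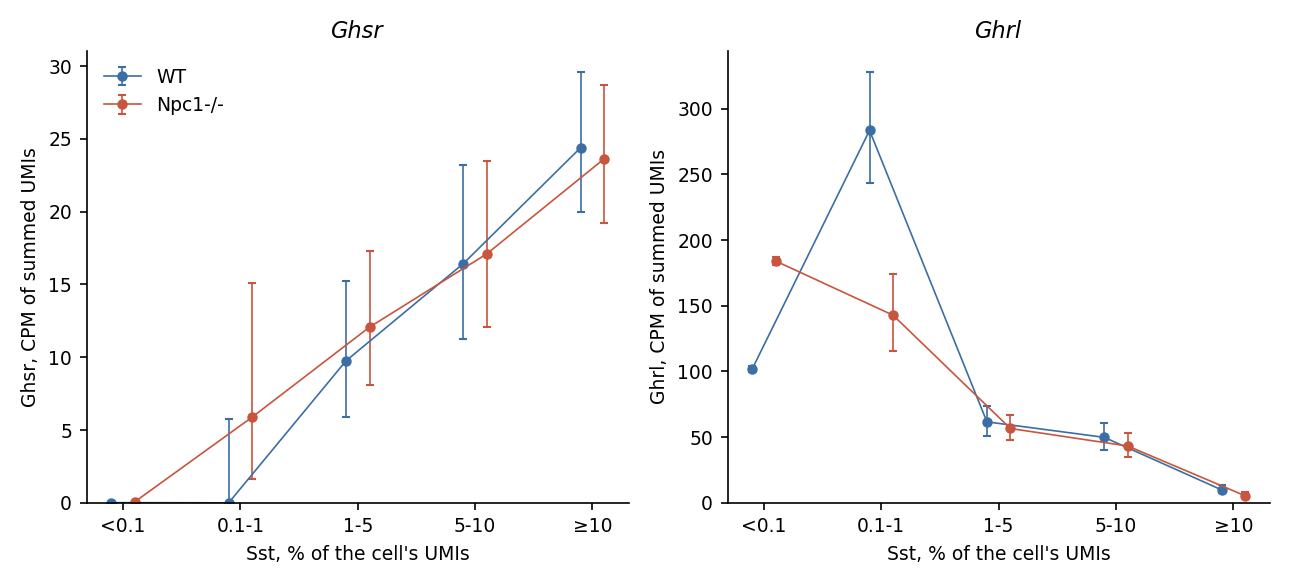
Ghsr and Ghrl CPM (linear axes) in kept cells grouped by the share of Sst in their UMIs, in each library, with 95% exact Poisson intervals. Ghsr climbs from the 1 to 5% step to the step above 10% in both libraries while Ghrl declines, and the lowest step of Npc1KO includes the barcode with 43.9% Ghrl.

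Other genes of the pathway were measured at very different levels. Among the processing enzymes, Pcsk2, the convertase typical of α cells, was at 3109 (WT) and 2672 (Npc1KO) CPM in Gcg-leading cells, where Pcsk1, the convertase that cuts proghrelin in the stomach, was at 11 and 7.11 CPM. In the narrower PP class Pcsk1 was at 76.5 and 95 CPM and Pcsk2 at 1655 and 1619 CPM. Of the genes acting on the receptor, Mrap2, an accessory protein of Ghsr, was at 0 in Sst-leading cells of both libraries. There 3 counts would be 1.105 and 1.23 CPM, and Mrap2 was at 0.433 and 1.165 CPM in Gcg-leading cells, so its absence was not shown. Leap2, a peptide that blocks Ghsr, had 0 UMIs in the hormone-leading, endothelial and stellate cells. Among receptors known from gastric ghrelin cells, the β1-adrenergic receptor gene Adrb1 was at 9.63 and 7.81 CPM in Gcg-leading cells and at 2.42 and 2.37 CPM in the narrower PP class, and the melanocortin receptor gene Mc4r at 8.31 and 5.69 CPM in the latter. The somatostatin receptor gene Sstr2 was at 14.9 and 20.2 CPM in Gcg-leading cells and at 4.68 and 5.06 CPM in the narrower PP class. Other receptors of that list were higher in classes with little Ghrl. Ffar4 was at 135 and 114 CPM in Sst-leading against 43 and 47.1 CPM in Gcg-leading cells. Gipr was at 47.9 and 54.35 CPM in Ins-leading against 19.25 and 19.57 CPM in Gcg-leading cells. The receptor list as a whole was thus not particular to the classes with Ghrl. Of the genes acting downstream of Ghsr, Itpr1, a calcium channel of the endoplasmic reticulum, was at 201 and 206 CPM in Sst-leading cells. It was at 145 and 159 CPM in Gcg-leading cells and at 24.9 and 35.4 CPM in Ins-leading cells. Other members of that list went the other way. Trpm5 was at 2.21 and 0.822 CPM in Sst-leading against 116 and 68.9 CPM in Ins-leading cells, and Itpr2 at 3.3 and 3.3 against 14.5 and 21.9 CPM. The list as a whole was thus not particular to Sst-leading cells. Among the lineage factors, Pax4, whose loss is known to favour ghrelin cells, had at most 0.0185 CPM in any of the same classes.

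These groups were then counted in the Ghrl-bearing cells. In Ghrl-bearing Gcg-leading cells, no member was called among the 5 tested genes of the ghrelin pathway list, 2 of acyl-CoA supply, 4 receptors of gastric ghrelin cells, 9 genes of Ghsr signalling and 12 lineage factors, and the same counts were 6, 2, 4, 8 and 12 tested and 0 called in the narrower PP class. With 0.0590% and 0.0393% of all genes called higher and lower in Gcg-leading cells and 0.198% and 0.154% in the narrower PP class, these counts of 0 are near the background and show nothing particular to the lists. Of the ε cell marker list 4 genes were tested in each class and 1, Anpep, was called higher in each, with a median log2 ratio of 0.21 (WT) and 0.09 (Npc1KO) in Gcg-leading cells and 0.24 and 0.25 in the narrower PP class, beside -0.03 and -0.09, and 0.01 and -0.05, over all genes tested. All 6 tested β cell markers were below 0 in both libraries in the narrower PP class, where 31.5% of all tested genes were, with medians of -0.76 (WT) and -1.23 (Npc1KO), and Iapp was the 1 that was called. The 3 tested genes of the endocrine progenitor list, Fev, Sox4 and Chgb, were below 0 in both libraries in Gcg-leading cells, with medians of -0.54 and -0.76. There 42.5% of all tested genes were below 0 in both. Chgb is not particular to progenitors here, at 665 CPM or more in the Ins-, Gcg- and Sst-leading and narrower PP classes. The other listed genes, among them Neurog3 and Pax4, were too low to be tested. No gene of the acinar, endothelial, stellate, lymphocyte or Schwann lists reached the level needed for the comparison. The 5 macrophage markers, of which 1 was tested, summed to 19.1 against 36.4 CPM in WT and 24.4 against 41.7 CPM in Npc1KO in the narrower PP class. These sums were nearly all C1qa, at 28.4 (WT) and 38.3 (Npc1KO) CPM over that class. C1qb, C1qc, Cd68 and Adgre1 were each at 0.346 CPM or less there. C1qa was also at 169 and 182 CPM in Sst-leading cells, so the sums do not measure macrophage RNA. The part of these lists in the results was not tested.

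Across the 14 sums of 7 classes in each library, the genes whose log2(CPM + 1) correlated most closely with Ghrl depended on the same barcode. With it, the highest Pearson r was 0.902 (Rab3c), followed by Pla2g1b at 0.898, Ugt2b34 at 0.872 and Ctxn2 at 0.853, and the remaining genes of the first 10 were 2310061I04Rik, Slc25a39, Rhou, Ubqln2, Wdr90 and Selenoi. Without it the first 10 included Pou3f4 at 0.922, Pappa2 at 0.920, Edn3 at 0.920, Slc41a2 at 0.919 and Apod at 0.907. Ctxn2 was among the first 10 both with and without the barcode. The points of a library share depth and background RNA, and the values are a description.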

How the data were processed

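Single-cell suspensions of islets were profiled with 10x Genomics 3' chemistry, as 1 WT and 1 Npc1KO library. The authors deposited 1 matrix of raw UMI counts per library, with no normalisation, and the submitters' processing notes name Cell Ranger 3.1.0, Seurat 4.0.3 and mm10. The matrices hold more barcodes than were analysed here, and a barcode was kept if over 1000 genes were detected, the total was below 50000 UMIs, mitochondrial genes took less than 10% of it and haemoglobin genes no more than 0.1% (54.0% of WT and 55.8% of Npc1KO barcodes). Doublets were kept in the main analysis. Scrublet (scanpy 1.11.5) scores were used in an alternative that removed 317 WT and 261 Npc1KO barcodes, at an assumed rate of 0.8% per 1000 barcodes. No annotation of cell types was used, so the classes were rebuilt from the leading hormone and, with at least 5 UMIs, from lineage markers.

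UMI counts were summed per class and expressed per 1000000 UMIs of that sum (CPM). With 1 library per genotype no test was made, and cells were not treated as replicates. Levels have exact Poisson, shares Clopper-Pearson and ratios conditional binomial 95% intervals, which cover counting error only. Log2 ratios of sets of cells had 0.5 counts added. A count of 0 was given the level of 3 counts as its limit. The ratio calculation was checked on simulated data. Sequence was read from GENCODE transcripts of GRCm38, whose genes matched all 3 symbols. Calculations used Python 3.11.15, numpy 2.4.6, scipy 1.17.1 and pandas 2.3.3.

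The genes, gene lists and limits were chosen with earlier results of these data known. Genes were named as the 3 members, the members of the lists, the 10 highest and 10 lowest called genes of each comparison of cells with at least 0.5% Ghrl by the smaller ratio of the libraries, all called genes of the Ghrl-bearing comparisons, and the 10 genes most correlated with Ghrl, and a few genes that meet these rules are not reported here. The Ghrl-bearing comparisons, the split by Sst and the description of the top barcode were added after seeing the data. Alternatives changed the cell filter, doublets, hormone limits, library total, thinning, Ghrl limit, fold and low-count filter.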

Additional observations from a re-analysis of the deposited data

Results flagged for a closer look

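Ghrl was also counted in barcodes that did not pass the cell filters and enter none of the comparisons. These barcodes held 444 Ghrl UMIs in WT (22 CPM, in 111 of 3941 barcodes) and 563 in Npc1KO (17.2 CPM, in 167 of 3377 barcodes). Both levels lie above the limit that a count of 0 allows, which is why they are listed here, and both are above the 1.83 and 4.03 CPM of kept endothelial cells. In each library 1 of these barcodes had Ghrl at 0.5% of UMIs or more.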

How the results depend on the processing

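No paired analysis was possible because each genotype has 1 library and no result comes from a test. No replicate could be left out for the same reason. In all, 208 alternatives were computed for 38 results, of which 131 stayed within the counting interval or within 1.5 times the count, and 77 moved. These are levels, shares, counts and ratios, which have no sign, and a ratio crossed 1 without the top barcode, when Npc1KO to WT over all kept cells went from 1.74 to 0.631. With the Ghrl limit at 0.2%, 1.10% of WT and 0.398% of Npc1KO cells passed, and the genes called against other hormone-leading cells became 110 higher and 96 lower, and against other PP-leading cells 11 and 29. At 1%, 0.0432% of WT cells passed, 11 genes were lower against hormone-leading cells, and 0% of the Npc1KO cells were PP-leading, so that the comparison within PP-leading cells was not run. A looser cell filter gave Ghrl at 6.69 CPM in WT Ins-leading and 452 CPM in WT PP-leading cells. A stricter one gave, for WT and Npc1KO, 5.82 and 5.49 CPM in Ins-, 282 and 218 CPM in Gcg- and 490 and 217 CPM in PP-leading cells, with 22 genes higher and 18 lower against hormone-leading cells. With doublets removed, Ghrl was at 1.16 and 3.64 CPM in Ins-leading cells, 211 CPM in Npc1KO Gcg-leading and 508 CPM in WT PP-leading cells, 100% of the remaining Npc1KO Ghrl-rich cells were PP-leading, and 5 genes were higher and 4 lower in Ghrl-bearing PP-leading cells. With hormone genes left out of the total, Ghrl was at 11.2 and 10.2 CPM in Ins-, 408 and 312 CPM in Gcg- and 820 and 346 CPM in PP-leading cells and at 15.3 CPM in WT Sst-leading cells, and the genes called were 8 higher and 11 lower against PP-leading cells, 6 and 4 in Ghrl-bearing Gcg- and 20 and 14 in Ghrl-bearing PP-leading cells. A hormone limit of 20% gave Ghrl at 222 CPM in Npc1KO Gcg-, 5.81 CPM in WT Sst- and 628 and 264 CPM in PP-leading cells, and Ghsr at 20.4 CPM in WT Sst- and 2.13 and 3.95 CPM in PP-leading cells. Averaging over cells gave Ghrl at 196 CPM in Npc1KO Gcg- and 444 and 182 CPM in PP-leading cells. Thinning to 2500 UMIs gave 22.9% and 21.4% of Gcg- and 22.7% of WT PP-leading cells with a Ghrl UMI, and no thinning 39.4%, 40.7%, 35.8% and, in Npc1KO PP-leading cells, 32.8%, against 29.5%, 29.3%, 27.7% and 22.3% at 5000 UMIs.

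The alternatives for Ghrl-bearing cells were added after seeing the data. In Gcg- and PP-leading cells respectively, a log2 ratio of 0.58 called 7 higher and 7 lower and 24 and 25 genes, a filter of 10 CPM 9 and 9 and 23 and 16, and a filter of 50 CPM 1 and 1 and 2 and 3. A Ghrl limit of 0.02% called 1 gene lower in Gcg- and 5 higher and 3 lower in PP-leading cells, and a limit of 0.1% 6 lower in Gcg- and 24 higher and 11 lower in PP-leading cells. Without the cells at 0.5% or more, the Ghrl ratio of Npc1KO to WT was 0.836 in Gcg- and 0.518 in PP-leading cells with Sst under 1%, and without the top barcode Ghrl over all kept Npc1KO cells was at 61.1 CPM. Apart from the construction of each alternative, the cause of these shifts was not tested. Depth limits Mboat4 most, with 22 UMIs in each library.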

Other observations

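Gm26982, which overlaps Ghrl on the opposite strand, had 195 UMIs in WT and 234 in Npc1KO, while Gm39158, which overlaps Mboat4 on the opposite strand, had 0 in both. The libraries shared 12 barcode sequences, of which 3 were kept in both, and none of the 3 was Ghrl-bearing.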
